A study of Mus musculus with 18 samples.

Results

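This comparison asked whether the left and the right lung of the mouse differ in their microRNAs (miRNAs). It used 6 of the 18 libraries of the series, chosen by organ and side alone: 3 labelled left lung and 3 labelled right lung. The other 12 came from left and right eyes and testicles, with 3 libraries a side. All groups shared 1 description: normal male mice of strain C57BL/6, 8 to 12 weeks old, with no genetic change or agent named. Total RNA was extracted, and miRNA libraries were sequenced by the BGI-500 protocol. The labels do not say how many mice gave the lungs, whether a left and a right library with the same number came from 1 mouse, or which lobes were taken, so the p-values below measure only the spread between these libraries, which may be technical.

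A miRNA is cut from a hairpin precursor, and 1 of its arms, 5p or 3p, is loaded into an Argonaute protein. There the seed, bases 2 to 8, pairs with messenger RNAs and lowers their translation and stability. The lungs are among the visibly asymmetric organs: in the mouse the left lung is a single lobe and the right is divided into several, a difference laid down in the embryo. Adult lung miRNAs are mostly those of its cell types, such as miR-126a of endothelium, the miR-200 family of epithelium, miR-34 and miR-449 of ciliated cells, miR-143 and miR-145 of smooth muscle and miR-451a of red cells.

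The 6 lung libraries held 2538402 to 2790471 counts each, and 696 to 852 miRNAs had at least 1 count. Of 1431 listed miRNAs, 303 had no count in any lung and 430 had enough counts to be tested. Those 430 held at least 99.94% of each library's counts. Levels are CPM, the counts scaled to a common library size, after adjustment by trimmed mean of M-values (TMM), and 3 counts, the upper limit for a count of 0, correspond to 1.08 to 1.18 CPM of the library total (counting error only). The library right lung 1 stood apart from the others. Its correlation of log2(CPM + 1) with the other lungs, across miRNAs, was 0.929 to 0.945, whereas the other 5 libraries correlated with each other at 0.963 to 0.986. It was the highest of the 6 for 33.5% of the 430 miRNAs and the lowest for 32.6%, against at most 18.8% and 17.7% for any other library. It was more than 2-fold above the median of the others for 63 miRNAs and more than 2-fold below it for 95. Its TMM factor was 0.761, against 0.931 to 1.17 in the other 5 libraries. A lower factor gives a higher CPM from the same count and library total. Results are therefore given with and without right lung 1.

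**Figure D1:**
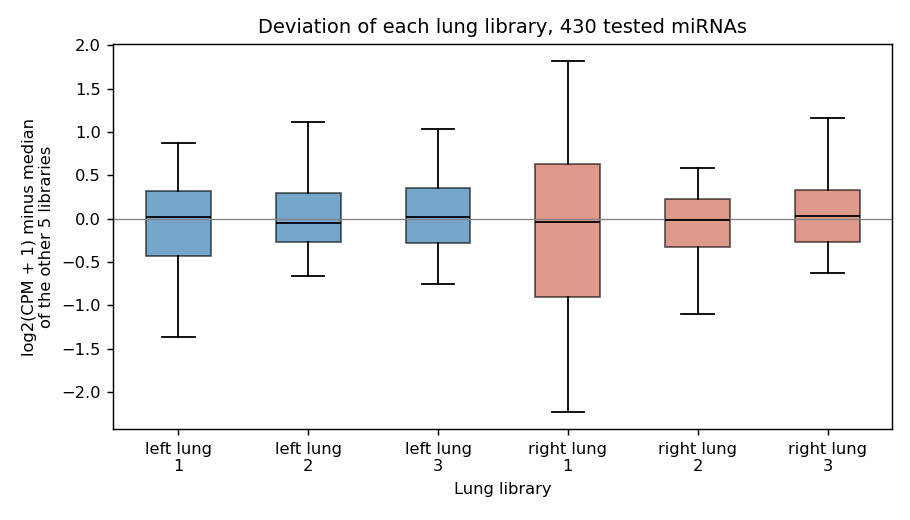
Deviation of each lung library from the other 5. The vertical axis is log2(CPM + 1) minus the median of the other 5 libraries over 430 miRNAs; boxes span the quartiles, the line is the median and whiskers reach from the 5th to the 95th percentile (blue left, red right). The box of right lung 1 is the widest of the 6.

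The mature sequences of the miRNAs on which the results turn are given first, 5′ to 3′, with the seed in capitals. They come from RefSeq on GRCm38.p6, where 356 of the 430 tested miRNAs matched by name. The first set holds the miRNAs of the let-7 family described below, which share 1 seed, and miR-125a, which lies beside let-7e. The hairpin gene Mirlet7e is at chr17:17830352-17830444 (+) and Mir125a at chr17:17830812-17830879 (+), both within Spaca6 on its strand, the let-7e hairpin in an intron and the miR-125a hairpin in an annotated exon.
let-7e-5p: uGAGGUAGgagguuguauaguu
let-7d-5p: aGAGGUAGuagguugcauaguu
let-7b-5p: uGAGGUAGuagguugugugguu
let-7c-5p: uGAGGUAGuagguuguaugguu
miR-125a-5p: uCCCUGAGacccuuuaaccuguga
miR-125a-3p: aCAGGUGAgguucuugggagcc

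A second set shows the miRNAs with the lowest p in the comparison or the largest estimates. The 3p arms of miR-30a and miR-30e share the seed UUUCAGU, and miR-204 and miR-211 share UCCCUUU. Mature miR-148a-5p lies at chr6:51269867-51269888 (-) in no annotated gene but its own. Mature miR-25-3p lies at chr5:138165332-138165353 (-) within Mcm7, and an exon of some annotated transcript of that gene overlaps its hairpin. The hairpin gene Mir100 at chr9:41531425-41531504 (+) is in introns of non-coding transcripts on its strand, Mir30e at chr4:120772606-120772697 (-) in an intron of Nfyc, and Mir183 at chr6:30169668-30169737 (-) in no other gene. Introns of Trpm3 and Trpm1 hold mature miR-204-5p at chr19:22750610-22750631 (+) and miR-211-5p at chr7:64205831-64205852 (+).
miR-148a-5p: aAAGUUCUgagacacuccgacu
miR-25-3p: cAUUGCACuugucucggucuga
miR-100-3p: aCAAGCUUgugucuauagguau
miR-183-5p: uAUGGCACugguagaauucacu
miR-30a-5p: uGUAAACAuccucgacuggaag
miR-30a-3p: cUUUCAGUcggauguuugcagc
miR-30e-3p: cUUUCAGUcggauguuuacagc
miR-204-5p: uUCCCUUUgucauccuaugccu
miR-211-5p: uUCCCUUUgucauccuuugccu

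No tested miRNA was called different between left and right lung. In edgeR's quasi-likelihood test with Benjamini-Hochberg adjustment, 0 of 430 miRNAs (0.00%) had an adjusted p under 0.05, and the smallest adjusted p was 0.908. Only miR-148a-5p, 1 of 430 (0.233%), had an unadjusted p under 0.05. DESeq2, run without that filter on low counts, called 0 of 1126 miRNAs, with 12 at an unadjusted p under 0.05. The estimates were balanced, with 216 miRNAs (50.2%) higher and the rest (49.8%) lower in the left lung and a median log2 difference of 0.00137, left minus right. Scaling by library totals alone, without TMM, moved that median to 0.152 and put 62.6% of the estimates above 0. With TMM the median fell with abundance. It was 0.154 among 79 miRNAs under 10 CPM, 0.0273 at 10 to 100 CPM, -0.0277 at 100 to 1000 CPM and -0.17 among 87 at 1000 CPM or more.

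A p above the threshold does not show that the sides are equal, so the 95% intervals were counted. For 86 of 430 miRNAs (20.0%) the whole interval of the left to right difference lay within 2-fold. Of the 87 miRNAs at 1000 CPM or more, 44 met that bound. The median interval reached 1.64-fold either way among those 87, 1.93-fold among 96 miRNAs at 100 to 1000 CPM, 2.14-fold among 168 at 10 to 100 CPM and 2.34-fold among 79 under 10 CPM. These intervals are not adjusted for the 430 miRNAs tested, so differences of those sizes, and larger ones, could go uncalled. For miR-30e-3p an estimate of -1.77 on the log2 scale had an adjusted p of 0.908 in edgeR's test. Without right lung 1 the interval lay within 2-fold for 160 of the same 430 miRNAs, and again 0 were called.

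**Figure D2:**
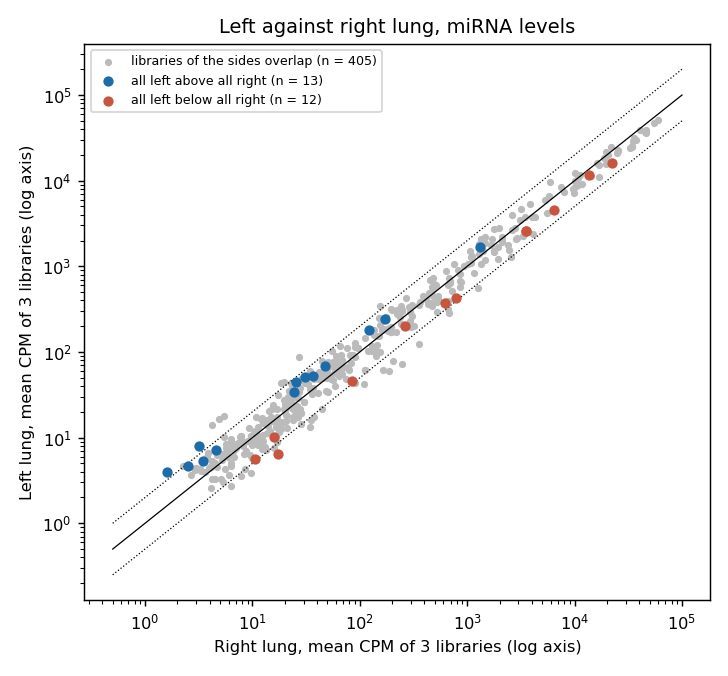
Mean level of each of 430 miRNAs in left (vertical) and right lung (horizontal), both in CPM on log axes. The solid line marks equal levels and the dotted lines 2-fold; 13 miRNAs with every left library above every right are blue, 12 with every left library below are red, and the other 405 are grey.

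The lowest unadjusted p belonged to miR-148a-5p, the less abundant arm of the miR-148a hairpin. Its counts were 10, 12 and 12 in the left libraries and 3, 3 and 6 in the right, and its level was 4.14, 3.76 and 3.93 CPM in the left libraries and 1.52, 1.11 and 2.13 CPM in the right. All 3 left libraries lay above all 3 right libraries, on 46 counts in all, and the right libraries were close to the level that 3 counts give. The log2 difference was 1.28 (SE 0.461), with a 95% interval of 0.22 to 2.35, an unadjusted p of 0.024 and an adjusted p of 0.908 in edgeR's test. It was 1.25 without right lung 1.

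Next came miR-25-3p, which shares its seed with miR-92a and miR-32. It stood at 275, 424 and 405 CPM in the left libraries and 771, 581 and 498.6 CPM in the right. Every left library lay below every right one, with the highest value in right lung 1. The difference was -0.74 (SE 0.335) on the log2 scale, with an interval of -1.52 to 0.03, and -0.56 without right lung 1. The 3p arm of miR-100, a miRNA of the miR-99/100 family, had 53.0, 44.1 and 39.3 CPM in the left libraries and 125, 58.8 and 70.5 CPM in the right. Here too the sides did not overlap, and the difference was -0.89 (SE 0.414), or -0.51 without right lung 1. Low counts lay behind miR-5114, at 1.66, 10.01 and 7.87 CPM in the left libraries and 26.3, 14.4 and 11.7 CPM in the right, with a difference of -1.39 (SE 0.638) and -0.99 without right lung 1.

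The arms of miR-30a took opposite directions. Its 5p arm, the guide strand, was at 11868, 6484 and 10752 CPM in the left libraries and 5183, 4021 and 8351 CPM in the right. The left values were higher on average but overlapped the right, with left lung 2 below right lung 3, and the log2 difference was 0.73 (SE 0.354), with an interval of -0.09 to 1.55 (0.65 without right lung 1). The 3p arm was at 499.6, 709 and 464 CPM in the left libraries and 2461, 762 and 572 CPM in the right, so that right lung 1 alone was far above the rest. Its difference was -1.18 (SE 0.561), against -0.26 without that library. For miR-30e-3p, with the same seed, the level was 72.9, 97.0 and 46.9 CPM in the left libraries and 584, 105 and 53.5 CPM in the right, and the difference was -1.77 (SE 0.845) with and -0.14 without right lung 1. A similar dependence was seen for miR-183-5p, a sensory-cell miRNA, at 817, 1758 and 1245 CPM in the left libraries and 4285, 1873 and 1475 CPM in the right, with -0.998 (SE 0.475) and -0.40 without right lung 1. The plot of the 10 lowest p shows both sets of estimates, among them miR-1981-3p at -1.28 (SE 0.599), or -0.47 without that library.

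**Figure D3:**
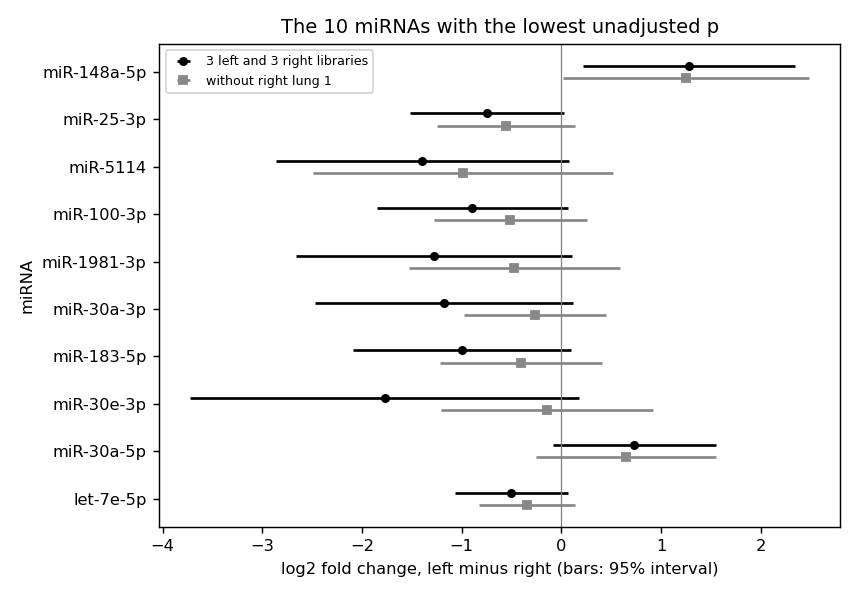
The 10 miRNAs with the lowest unadjusted p in left against right lung. Points are log2 fold changes, left minus right, and bars are 95% intervals, in black for all 6 libraries and grey without right lung 1. With all 6 libraries, every interval except that of miR-148a-5p crosses 0.

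Sorted by overlap of the TMM-scaled levels alone, 13 of 430 miRNAs (3.02%) had every left library above every right, and 12 (2.79%) had every left library below every right. Right lung 1 was the furthest of the right libraries from the left side in all 12 of the latter and in 6 of the 13. Both arms of miR-125a were among the 13. The 5p arm, a miRNA of the lin-4 family, stood at 1712, 1703 and 1583 CPM in the left libraries and 1390.1, 1216 and 1359.9 CPM in the right. Its sides were separated by a narrow gap, with a log2 difference of 0.33 (SE 0.248) and an interval of -0.24 to 0.91 (0.37 without right lung 1). The 3p arm stood at 59.2, 46.3 and 51.8 CPM in the left libraries and 31.4, 45.9 and 33.0 CPM in the right, with a difference of 0.51 (SE 0.362), or 0.41 without right lung 1. By contrast let-7e-5p, from the neighbouring hairpin, was lower in every left library, at 4482, 4086 and 4988 CPM in the left libraries and 7785, 5212 and 6221 CPM in the right, with -0.50 (SE 0.247) on the log2 scale and -0.34 without right lung 1. Another of the 13, miR-214-5p of the unit that also gives mesenchymal miR-199, was at 210.4, 182.4 and 154 CPM in the left libraries and 74.4, 148 and 141 CPM in the right, with a difference of 0.59 (SE 0.389), or 0.33 without right lung 1. None of these 25 had an adjusted p below 0.908 in edgeR's test.

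Among the 10 let-7 family members tested, which repress growth and cell-cycle genes and mark differentiated cells, 9 had a lower estimate in the left lung, where 49.8% of all miRNAs did. The family's median log2 difference was -0.443, against 0.00137 over all tested miRNAs. Without right lung 1 it was -0.191, against 0.0319. Under library totals alone the family's median was -0.243, where the median of all miRNAs was 0.152. Under TMM the median was -0.17 over the 87 miRNAs at 1000 CPM or more. That class holds every tested let-7 member but let-7k. None of the 10 was called. The summed level was 211131, 140969 and 177533 CPM in the left libraries and 311726, 180180.0 and 206961 CPM in the right, with right lung 1 the highest and left lung 2 the lowest. In the sums the sides overlapped, but let-7d-5p was lower in every left library, at 16428, 14610.2 and 16590.2 CPM in the left libraries and 28806, 17619 and 20149 CPM in the right, and its log2 difference was -0.48 (SE 0.245), or -0.26 without right lung 1. For let-7b-5p the values were 31482, 19783 and 24234 CPM in the left libraries and 49361, 26035 and 26268 CPM in the right, and the difference of -0.43 (SE 0.318) became -0.06 without right lung 1. For let-7c-5p it was -0.36 (SE 0.293) and -0.05 without that library.

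No miRNA of the lists for the lung's structural cell types was called. The most abundant lung miRNA was miR-126a-3p of endothelium, from the hairpin in Egfl7, which supports vessel integrity. It took 5.40% ± 0.708 of counts in the left and 5.54% ± 0.428 in the right (mean ± SD, n = 3 each). After TMM scaling it stood at 66829.9, 42449 and 45733 CPM in the left libraries and 78617, 51932 and 49612 CPM in the right, with left lung 1 and right lung 1 the highest and a difference of -0.22 (SE 0.271), or 0.02 without right lung 1. Epithelial miR-200c-3p, which holds ZEB transcription factors low, was at 11694, 11636 and 11767 CPM in the left libraries and 10009, 11215 and 12401 CPM in the right. Its difference was 0.06 (SE 0.205), with an interval of -0.41 to 0.53, and -0.02 without right lung 1. Of the 9 tested miRNAs of the miR-200 family 6 had a higher and 3 a lower estimate in the left lung, with a median of 0.0618. Without right lung 1 this was 3 higher and 6 lower, with a median of -0.0514.

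In smooth muscle, miR-143-3p, which favours the contractile state, stood at 43119, 33587 and 35533 CPM in the left libraries and 58679.7, 37728 and 38383 CPM in the right, with a difference of -0.26 (SE 0.243) and -0.03 without right lung 1. Of the 4 tested miRNAs of the list of miR-143 and miR-145 arms 2 were higher and 2 lower, with and without right lung 1. In the mesenchymal list 4 of 6 had higher left estimates, with a median of 0.468, against 3 of 6 and 0.0694 without right lung 1. Its miR-199a-3p has counts identical to those listed for miR-199b-3p and cannot be told apart from it (both names are among the 6). After TMM scaling it was lower in every left library, at 2001, 2942 and 2751 CPM in the left libraries and 3792, 3110.3 and 3696 CPM in the right. The difference was -0.46 (SE 0.261). Before scaling, its counts were 4830, 9400 and 8394 in the left libraries and 7487, 8405 and 10430 in the right. Those counts overlapped between the sides. The 5p arm of miR-199a went the other way, at 1634, 2589 and 2304 CPM in the left libraries and 475, 2257 and 1618 CPM in the right, where right lung 1 was the lowest of the 6. Its difference was 0.59 (SE 0.523), and 0.16 without that library. In these bulk samples, fewer cells of a type and less RNA per cell cannot be told apart.

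Ciliated-cell miRNAs were uneven within both sides. In airway cells with motile cilia the family of miR-34 and miR-449 acts through GGCAGUG, the shared seed of its 5p arms. The 6 tested miRNAs of the list include the 3p arms of miR-34b and miR-34c. These 6 gave 2 higher and 4 lower estimates in the left lung, with a median of -0.129. That median was 0.137 without right lung 1 and 0.105 under library totals alone. The most abundant, miR-449a-5p from an intron of Cdc20b, had 7265, 16354 and 8818 CPM in the left libraries and 12918, 8256 and 11294 CPM in the right. Left lung 2 was the highest and left lung 1 the lowest. For miR-34b-5p the levels were 98.2, 561 and 628 CPM in the left libraries and 70.9, 226 and 506 CPM in the right, lowest in right lung 1 and left lung 1, with a difference of 0.68 (SE 0.819) and 0.22 without right lung 1. The 5p arm of miR-34c was also lowest in right lung 1, at 130 CPM. The 3p arms of both hairpins were instead highest in that library, at 4578 CPM for miR-34b-3p and 2230 CPM for miR-34c-3p.

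Of the blood-cell lists, 9 of 10 leukocyte miRNAs had a lower estimate in the left lung, with a median of -0.339, and -0.145 without right lung 1. None was called. Myeloid miR-223-3p was at 509.9, 783 and 731 CPM in the left libraries and 1066, 849 and 634 CPM in the right, so the sides overlapped, and its difference was -0.33 (SE 0.331), or -0.14 without right lung 1. Lymphocyte miR-150-5p was at 12633, 8629 and 8849 CPM in the left libraries and 9998, 11694 and 8748 CPM in the right, and the sides overlapped. Of the 6 erythroid miRNAs 5 had a lower estimate in the left lung, with a median of -0.568, and -0.577 without right lung 1. Over all tested miRNAs 49.8% had a lower left estimate. Among the 5, miR-486a-5p and miR-486b-5p have identical counts, so the same values enter under both names. Red-cell miR-451a, which is matured by Argonaute 2 and not by Dicer, stood at 2494, 1509 and 3123 CPM in the left libraries and 2757, 2974 and 6653 CPM in the right. Right lung 3 was the highest of the 6, more than 2-fold above each of the others, and the sides overlapped. The difference was -0.80 (SE 0.431), with an interval of -1.79 to 0.20, and -1.02 without right lung 1.

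Striated muscle miRNAs were low and uneven within both sides. The summed level of the 7 tested was 94.0, 584 and 553 CPM in the left libraries and 179.8, 119 and 632 CPM in the right. Left lung 2, left lung 3 and right lung 3 were high and the other 3 libraries low, so the division did not follow the side. The chief member, miR-1a-3p of heart and skeletal muscle, had 36.5, 459 and 404 CPM in the left libraries and 135, 80.3 and 523 CPM in the right and a difference of 0.28 (SE 0.948), which was -0.02 without right lung 1. The level of miR-133a-3p, its partner in the same transcripts, was 9.94, 62.9 and 57.7 CPM in the left libraries and 4.05, 11.8 and 39.0 CPM in the right, with a difference of 1.24 (SE 0.894), or 0.77 without right lung 1. Cardiac miR-208a-3p, from an intron of the heart myosin gene Myh6, had counts of 2, 55 and 109 in the left libraries and 0, 1 and 45 in the right. It followed the same libraries as miR-1a-3p, and its difference was 1.68 (SE 1.46), or 1.13 without right lung 1. Of the 14 list members in the count tables, 4 minor arms were at 0 in all 6 lungs. Mouse pulmonary veins carry heart muscle into the lung; which tissue these counts came from was not tested.

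**Figure D4:**
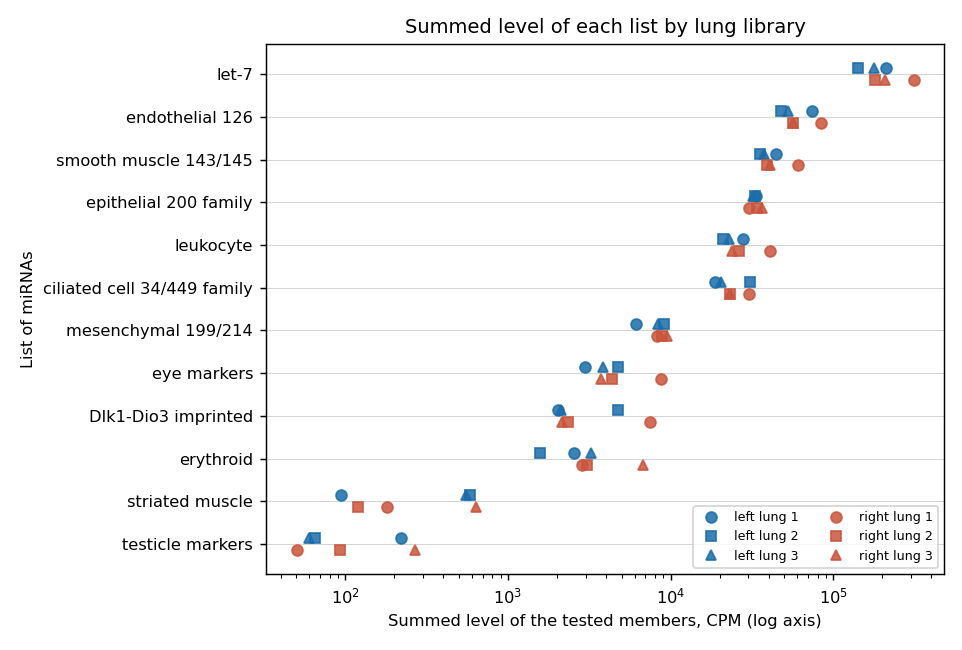
Summed level of the tested members of 12 miRNA lists in each lung library, in CPM on a log axis. Blue is left and red right, and the shape gives the library number. The striated muscle sum was high in left lung 2, left lung 3 and right lung 3.

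Lists chosen for sidedness or lung growth gave no call. The miR-302 cluster, which acts in embryonic lung progenitors, had 4 miRNAs in the tables, all at 0 in the 6 lungs, so that 3 counts limit each to 1.08 to 1.18 CPM per library. Of 6 miRNAs of the miR-15/16 family, which target Nodal receptors in frog embryos, 4 had a higher and 2 a lower estimate in the left lung, with a median of 0.119. Among 12 miRNAs of the miR-17-92 cluster and its paralogues, which promote proliferation in the growing lung, 8 were higher and 4 lower, with a median of 0.149. Without right lung 1 that direction turned, with 4 higher and 8 lower and a median of -0.138. From the HOX clusters, miR-10a-5p was at 18333, 15631 and 15795 CPM in the left libraries and 25516, 17359.6 and 16657 CPM in the right, and right lung 1 was the highest. Before TMM scaling its counts were closer, at 44259, 49952 and 48193 in the left libraries and 50385, 46911 and 47008 in the right. Of the 4 HOX-cluster miRNAs tested, 1 had a higher left estimate, with a median of -0.496, against 2 of 4 and 0.0695 without right lung 1. Members of the miR-29 and miR-30 families restrain collagen and other matrix genes. The 12 tested arms of that list include the 3p arms of miR-30a and miR-30e, whose seed differs from that of miR-30a-5p. Of the 12 arms, 9 had a higher left estimate, with a median of 0.469, and 0.136 without right lung 1. Injury-related miR-21a-5p was at 22716, 19831 and 22230.3 CPM in the left libraries and 13501, 23131 and 21679 CPM in the right, where right lung 1 was the only low library. Its difference was 0.15 (SE 0.254), and -0.06 without that library.

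The 22 tested miRNAs of the imprinted Dlk1-Dio3 region, which is active in fetal tissue and growth, had 15 higher and 7 lower estimates in the left lung. Their median was 0.348, and 0.376 without right lung 1, and none was called. The summed level was 2040.5, 4742 and 2128 CPM in the left libraries and 7418, 2342 and 2154 CPM in the right, with right lung 1 and left lung 2 above the other 4. Those 2 libraries also had the highest sum of eye markers. Over the 10 tested eye markers the sum was 2973, 4731 and 3857 CPM in the left libraries and 8688, 4375 and 3711 CPM in the right. Their median difference was -0.644, with 8 of 10 lower in the left, and 0.165 with 4 of 10 lower without right lung 1. Much of the sum was miR-183-5p, at 4285 CPM in right lung 1. The other abundant markers had another order, with miR-182-5p at 621, 1321 and 1329 CPM in the left libraries and 787, 1397 and 1098 CPM in the right and miR-96-5p at 1261, 805 and 985 CPM in the left libraries and 1108, 769 and 908 CPM in the right. Right lung 1 was not the highest library for either. The part of these markers in the other results was not tested.

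Within that list, miR-204-5p, abundant in the pigment epithelium and the lens, was at 198, 500.1 and 163 CPM in the left libraries and 1696, 177 and 153 CPM in the right. Right lung 1 was far above the rest, followed by left lung 2. The difference of -1.23 (SE 0.948) became 0.80 without right lung 1. The melanocyte and pigment epithelium miRNA miR-211-5p gave 45.6, 89.8 and 43.6 CPM in the left libraries and 449.7, 77.7 and 28.3 CPM in the right, with -1.63 (SE 0.921) and 0.16 without right lung 1. For lens and cornea miR-184-3p the levels were 7.87, 90.4 and 32.1 CPM in the left libraries and 208.1, 38.1 and 22.7 CPM in the right, with right lung 1 and left lung 2 again the highest, and the difference of -1.04 (SE 1.02) became 0.51. Neuronal miR-124-3p was highest in left lung 2 and right lung 1, at 8.7, 143.01 and 42.0 CPM in the left libraries and 116, 23.7 and 7.09 CPM in the right.

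Markers of the testicle were low in the lung. The 7 tested summed to 219, 65.1 and 59.6 CPM in the left libraries and 50.1, 93.3 and 268 CPM in the right, with left lung 1 and right lung 3 the highest. Of 21 in the tables, 4 were at 0 in all lungs. The gonadal miR-202-5p had counts of 231, 88 and 70 in the left libraries and 23, 118 and 300 in the right. Without right lung 1 and left lung 2, or without left lung 1 and right lung 3, 0 miRNAs were called between the sides, both choices having been made after the values were seen.

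The 2 arms of a hairpin come from 1 precursor. Where an arm shares its counts with another name, as miR-199a-3p does, its counts may also include those of another hairpin. A ratio of 2 levels within a library does not depend on how that library was scaled, apart from the pseudocount of 1. Over 109 hairpins with both arms tested, every left library had the higher 5p to 3p ratio for 6 (5.50%) and the lower for 3 (2.75%). The median size of the left to right difference was 0.412 on the log2 scale. Where both arms averaged at least 50 CPM, 19 of 45 hairpins ranged over more than 2 log2 units among the 6 lungs. The miR-30a hairpin, of RefSeq on GRCm38.p6 at chr1:23272269-23272339 (+), is printed with both mature arms in capitals because its arms took opposite directions above.
Mir30a: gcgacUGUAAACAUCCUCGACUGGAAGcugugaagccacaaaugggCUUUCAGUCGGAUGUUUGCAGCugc
Its log2 ratio of 5p to 3p was 4.57, 3.19 and 4.53 in the left libraries and 1.07, 2.40 and 3.87 in the right. For miR-30e it was 1.92, 1.19 and 3.26 in the left libraries and -2.37, 0.06 and 2.76 in the right. In both, right lung 1 had the lowest ratio and left lung 3 was among the highest. The miR-100 hairpin was 1 of the 6 with a higher ratio in every left library, at 7.27, 7.33 and 7.38 in the left libraries and 6.37, 6.87 and 6.52 in the right. For miR-490, from an intron of the muscarinic receptor gene Chrm2, right lung 1 was the single high value, at 4.39, 3.55 and 3.36 in the left libraries and 8.68, 3.62 and 3.63 in the right.

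**Figure D5:**
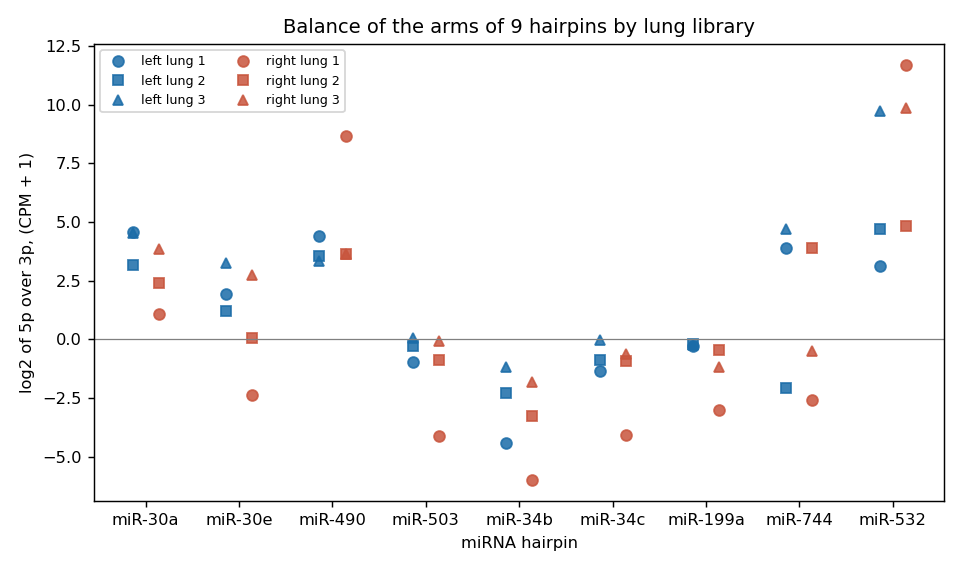
Balance of the arms of 9 hairpins in each lung library. The vertical axis is the log2 ratio of 5p to 3p on CPM + 1, blue is left, red is right, and the shape gives the library number. For miR-30a, miR-30e, miR-503, miR-34b, miR-34c, miR-199a and miR-744, right lung 1 has the lowest value.

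Several other miRNAs had right lung 1 at the high or the low end. The 5p arm of miR-490 was at 141, 132 and 103 CPM in the left libraries and 822, 134 and 121 CPM in the right, with a difference of -1.51 (SE 0.744) and -0.03 without right lung 1. Values for miR-503-3p, of a cell-cycle inhibitory cluster, were 81.2, 77.0 and 77.3 CPM in the left libraries and 437, 93.3 and 76.2 CPM in the right, with -1.36 (SE 0.674) and -0.12. For miR-181a-2-3p they were 84.9, 58.8 and 39.0 CPM in the left libraries and 377, 78.5 and 36.9 CPM in the right, and the difference went from -1.43 (SE 0.815) to 0.07 when it was left out. The guide strand miR-181d-5p, of a family that tunes lymphocyte signalling, had 365, 460.3 and 468 CPM in the left libraries and 1336, 502 and 526 CPM in the right, with -0.87 (SE 0.442) and -0.26. On the low side, miR-33-5p, which lies in the sterol regulator gene Srebf2 and represses cholesterol export, had 1087, 3131 and 4039 CPM in the left libraries and 319, 2148 and 2825 CPM in the right, and its difference was 0.64 (SE 0.752) with and 0.14 without right lung 1. Abundant miR-24-3p was highest in right lung 1, at 38639, 23722 and 26750.5 CPM in the left libraries and 62643, 21852 and 27251 CPM in the right, and -0.33 (SE 0.411) became 0.27. The largest left estimates among miRNAs with a mean of at least 50 CPM included miR-135b-5p, at 42.7, 157 and 107 CPM in the left libraries and 30.9, 26.3 and 108 CPM in the right. Its difference was 0.89 (SE 0.685), or 0.60 without right lung 1. Among them too were miR-193b-3p, at 60.5, 199.6 and 94.7 CPM in the left libraries and 48.1, 62.9 and 85.04 CPM in the right, with 0.86 (SE 0.512), or 0.67 without right lung 1, and miR-455-5p, at 53.0, 102 and 82.6 CPM in the left libraries and 14.2, 65.9 and 53.5 CPM in the right, with 0.83 (SE 0.582), or 0.40 without right lung 1. For all 3 the sides overlapped.

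A pair of miRNAs was nearly present or absent library by library, without regard to side. Both are printed with the seed in capitals, and for Mir744, in an intron of Map2k4 at chr11:65734733-65734832 (-), the hairpin follows with both arms in capitals. Mir532 lies in an intron of Clcn5, with its 3p arm at chrX:7248419-7248440 (-).
miR-744-5p: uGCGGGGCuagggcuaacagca
miR-532-3p: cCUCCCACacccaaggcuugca
Mir744: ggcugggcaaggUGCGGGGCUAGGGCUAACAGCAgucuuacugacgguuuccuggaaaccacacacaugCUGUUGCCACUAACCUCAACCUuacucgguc
Counts of miR-744-5p were 1012, 20 and 1821 in the left libraries and 12, 1207 and 38 in the right. The 3p arm of the same hairpin had 65, 94 and 67 in the left libraries and 83, 78 and 55 in the right. So 3 libraries held 1012 counts or more of the 5p arm and the other 3 held 38 or fewer, while the 3p arm stayed between 55 and 94 counts. Counts of miR-532-3p were 430, 258 and 3 in the left libraries and 0, 216 and 2 in the right, while its 5p arm had 3816, 6792 and 5113 in the left libraries and 6505, 6158 and 4453 in the right. The differences between sides were 1.13 (SE 1.68) for miR-744-5p and 1.68 (SE 1.88) for miR-532-3p, with intervals of -2.74 to 4.999 and -2.67 to 6.03. Without right lung 1 they were 0.56 and 1.10.

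Whether the lung's side difference was unlike that of the eye or the testicle was tested in a fit of all 18 libraries. For lung minus eye, 0 of 642 miRNAs (0.00%) had an adjusted p under 0.05 in edgeR's quasi-likelihood test, 20 (3.12%) had an unadjusted p under 0.05, and the smallest adjusted p was 0.996. For lung minus testicle, 0 of 642 (0.00%) were called, 24 (3.74%) had an unadjusted p under 0.05, and the smallest adjusted p was 0.479. For miR-148a-5p the side difference in the lung exceeded that in the eye by 1.53 (SE 0.539) on the log2 scale, with an adjusted p of 0.996. For miR-183-5p the lung's side difference minus the testicle's was -1.45 (SE 0.466). The lowest p of the testicle contrast came from miR-743b-3p, of the X-linked testis cluster miR-506, at -11.7 (SE 2.72). Its lung counts were 0, 0 and 4 in the left libraries and 0, 0 and 25 in the right, so this contrast rests on the testicle libraries.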

How the data were processed

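Mature miRNA counts were deposited by the authors as 1 table per library, whole-number counts per miRNA that had not been normalized. The genome build was GRCm38.p6, per the submitters' processing notes; the aligner, the counting tool and the treatment of multiply mapped reads: not given in the sources used here. Lung libraries held 2538402 to 2790471 counts. The 6 lungs were compared with edgeR 4.0.16 (R 4.3.3) by glmQLFit and glmQLFTest after TMM scaling and filterByExpr by side, with side as the only term and Benjamini-Hochberg adjustment over 430 miRNAs. Standard errors were computed as the size of the log2 fold change over the square root of F, and 95% intervals from the t distribution on the total degrees of freedom. The contrasts with eye and testicle came from the same model on 18 libraries and 6 groups, over 642 miRNAs. DESeq2 1.42.0 was an alternative. The procedure was tested on simulated data, in which no library was made to stand apart as right lung 1 did. Levels are TMM-scaled CPM; logs use a pseudocount of 1. Unique molecular identifiers are not named in the labels, so counts may include PCR copies. Names with identical counts in every library, 16 names in 7 sets among those tested, cannot be told apart, and list sums count each name. Library preparation favours some sequences, so levels compare a miRNA between libraries better than miRNAs with each other.

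Statistics were printed for part of the miRNAs that met a rule: the 10 lowest p, the 10 most abundant, up to 4 of each list, the 5 largest fold changes each way and the 10 largest within-side SDs at a mean of 50 CPM or more, and the 5 lowest p of each contrast. Let-7d-5p, both arms of miR-125a, miR-181d-5p and miR-214-5p were also named after their values were seen. The members and the lists were chosen with earlier results of these data known. The 19 lists held 218 names, of which 206 were in the tables and 140 were tested; of the lists not described in full, the tested members (4 of 9 Htr2c-intron, 4 of 8 HOX-cluster and 3 of 4 miR-210 and miR-21 names in the tables) gave 0 calls. RefSeq sequences were matched by name; miR-34c-5p, miR-1a-3p and miR-135b-5p are named only. No batch is given in the labels.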

Additional observations from a re-analysis of the deposited data

How the results depend on the processing

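The count of miRNAs called between left and right lung stayed at 0 under edgeR's relative log expression factors, library totals alone, DESeq2, identical names taken as 1, all 18 libraries in the fit and each library left out in turn (0 to 0). With no filter on low counts it was 1, miR-297c-5p, whose lung counts were 174 in right lung 2 and 0 in the other lungs. The contrasts with the eye and the testicle gave 3 and 4 calls without the filter. They gave 1 each without right lung 1 and left lung 2 (miR-320-3p) and 1 each without left lung 1 and right lung 3 (miR-135b-5p), alternatives chosen after seeing the data, and were otherwise at 0. The number of miRNAs with an interval within 2-fold was 86 and ranged from 28 (without left lung 2) to 160 (without right lung 1) when 1 library was left out; it was 49, 30, 34 and 36 without left lung 1, left lung 3, right lung 2 and right lung 3, 175 in the fit of all 18 libraries and 14 without left lung 1 and right lung 3. Leaving out 1 library changes both the spread and the number of miRNAs tested. In each such fit the interval count was the same over the 430 miRNAs of the main fit alone. The log2 difference of several single miRNAs changed sign when 1 library was left out. Without right lung 1 this held for miR-126a-3p (-0.38 to 0.022), miR-24-3p (-0.62 to 0.27), miR-211-5p (-2.09 to 0.16) and miR-181a-2-3p (-1.85 to 0.075). It also held for miR-204-5p (-1.90 to 0.80), miR-184-3p (-2.16 to 0.51), miR-21a-5p (-0.058 to 0.28) and miR-200c-3p (-0.018 to 0.17). For miR-1a-3p (-0.16 to 1.505) it held without right lung 1 and also without left lung 2 or right lung 2. Leaving out right lung 1 likewise moved miR-449a-5p from -0.00137 to 0.138, miR-34b-3p from -0.448 to 0.0638 and miR-34c-3p from -0.293 to 0.136. These are not all the miRNAs that changed sign. Without both right lung 1 and left lung 2 the differences were 0.15 for miR-126a-3p, 0.047 for miR-143-3p, 0.094 for let-7c-5p, 0.091 for let-7b-5p, 0.41 for miR-24-3p, 0.10 for miR-181a-2-3p, 0.13 for miR-204-5p, -0.012 for miR-34b-5p, -0.45 for miR-1a-3p and -0.010 for miR-200c-3p, each opposite in sign to the value with 6 libraries. The cause was not tested.

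With the replicate number as a block, 0 miRNAs were called, 21 rather than 1 had an unadjusted p under 0.05, and 108 had an interval within 2-fold. Deviations of same-numbered left and right libraries from their side means, over 230 miRNAs, correlated at 0.0586, -0.183 and 0.543 for numbers 1, 2 and 3; left lung 1 correlated best with right lung 2 (0.282) and left lung 2 with right lung 1 (0.234). The numbers were not treated as pairs because the labels do not say what a number marks. Whether same-numbered libraries came from 1 mouse cannot be told from these correlations.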

Other observations

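The uneven counts of miR-744-5p and miR-532 were not limited to the lung. In the eye, miR-744-5p had 871, 15 and 1239 counts in the left libraries and 7, 11 and 20 in the right, whereas in the testicle it had 252 to 408 counts in all 6 libraries. The 5p arm of miR-532, which had 3816 to 6792 counts in every lung, had 4, 21 and 5 counts in the left testicle and 22, 3299 and 2653 in the right. In the eye it had 7155, 16 and 6195 counts in the left libraries and 5554, 5257 and 23 in the right. Another such miRNA, miR-297c-5p of the Sfmbt2 intron cluster, had 174 counts in right lung 2 and none in the other lungs, while in the testicle it had 2, 2787 and 6 counts in the left libraries and 4, 1 and 2355 in the right. These miRNAs were singled out after their values were seen, and no explanation was tested.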
